A study of Mus musculus with 12 samples.

Results

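A set of 9 imprinted genes that are expressed from the paternally inherited copy, Mest, Peg3, Peg10, Sgce, Plagl1, Nnat, Snrpn, Impact and Ndn, was followed through wild-type and Phf6 knockout mouse embryonic stem cells. The genes were taken by symbol, all 9 were found among the 53379 genes of the expression tables, and all 9 were among the 17884 genes with enough reads to be tested. The cells were ZHBTc4, an embryonic stem cell line of strain 129/Ola without intact native Pou5f1 copies, whose Oct4 is supplied by a transgene repressed by doxycycline. This background was shared by all 6 groups: wild-type (WT) and Phf6 knockout (KO) cells, each untreated, with doxycycline for 2 days, or with all-trans retinoic acid for 4 days without leukemia inhibitory factor. Each group had 2 RNA-seq libraries. The labels give doxycycline as 0.5 µg/ml and the protocol text as 0.5 mg/ml, and retinoic acid as 10 mM in the protocol text, so the doses actually used are uncertain. The labels name neither the number of KO clones nor whether the replicates were separate cultures, and the p-values here speak of the spread between libraries, which may be technical. The first passages were grown on fibroblast feeders.

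An imprinted gene is controlled by DNA methylation laid down in the germ cells of the mother or the father, and in the offspring it is transcribed from the copy of only 1 parent. Zfp57, which binds methylated copies of a short motif, and its partner Trim28 hold that methylation in place in embryonic stem cells, with the maintenance methyltransferase Dnmt1 and its cofactor Uhrf1. Paternally expressed genes are known for promoting growth, and several of them, Peg10 and Mest among them, are prominent in placenta and mesoderm. The tables give 1 total per gene over both copies, so allele use was not measured.

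The libraries held 15799517 to 21441996 counts, and 3 counts corresponded to 0.132 to 0.204 CPM (counts per 1000000 counts of the scaled library). Mean Phf6 levels in WT and KO cells were 41.5 and 5.49 CPM untreated, 32.5 and 7.78 with doxycycline, and 40.5 and 5.93 with retinoic acid. Doxycycline took Pou5f1 from 1022 to 40.2 CPM (WT cells) and from 1194 to 13.7 CPM (KO cells). In WT cells, 10 pluripotency markers summed to 6604–6639 CPM untreated and 769–829 with doxycycline, and 12 trophectoderm markers to 139.8 and 2625–2994. The 1087 tested genes of chromosome 1 had a median log2 change in KO cells of -0.46 in each of the 3 conditions, against 0.04, 0.02 and 0.01 on the other chromosomes. None of the 9 genes lies on chromosome 1. The retinoic acid RNA was purified with a Qiagen RNeasy kit after Trizol, while the protocol of the other libraries names Trizol and a cDNA synthesis kit. No group had 4 days without leukemia inhibitory factor but no retinoic acid. Effects of retinoic acid, of that withdrawal, of the time and of the extraction therefore cannot be told apart. Below, an effect of retinoic acid means that of the whole treatment. Comparisons of KO with WT cells within 1 condition are free of these differences. In bulk RNA, fewer cells that express a gene and less of its RNA per cell cannot be told apart.

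**Figure D1:**
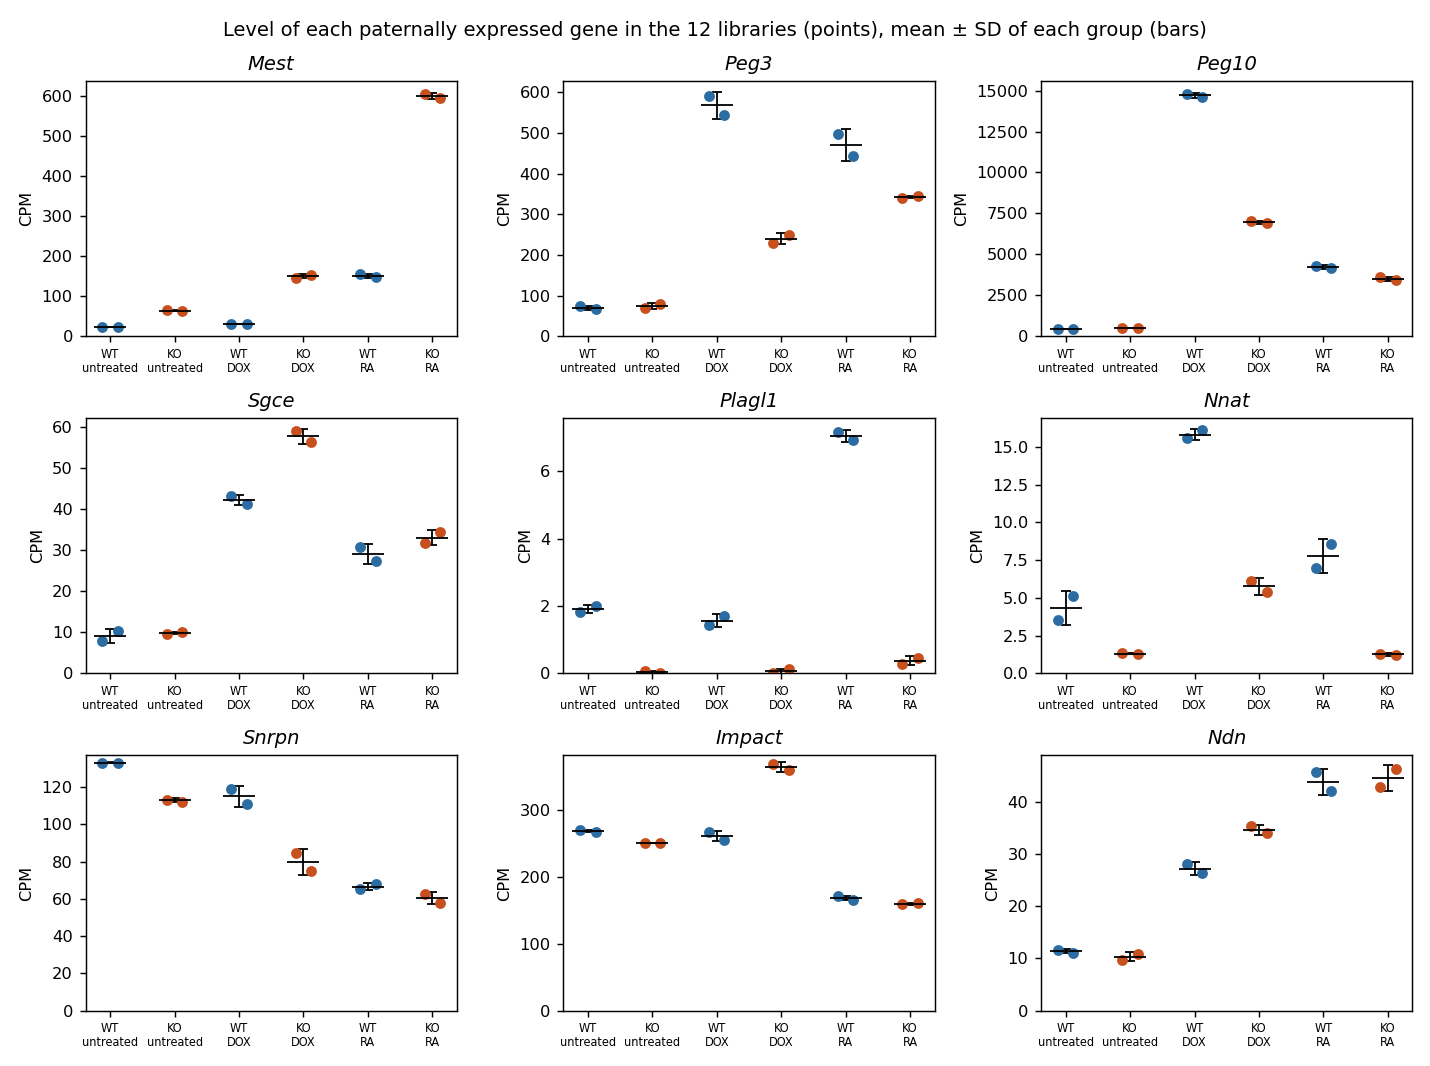
Level of each of the 9 genes in CPM (linear axes from 0) in the 6 groups. Points are the 2 libraries of a group (blue WT, orange KO), the long bar is their mean and the whiskers are ± 1 SD. Peg10 reached 14717 CPM in WT cells with doxycycline, Mest was highest in KO cells with retinoic acid at 601 CPM, and Plagl1 stayed under 0.5 CPM in every KO library.

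Plagl1 encodes a zinc finger transcription factor linked to cell cycle arrest and to a network of imprinted genes (ENSMUSG00000019817.18, chromosome 10, 13060504 to 13131694, plus strand). It was almost absent from KO cells. The 2 untreated WT libraries had 1.82 and 1.99 CPM, and the untreated KO libraries 0.0641 and 0 CPM. With doxycycline the WT libraries had 1.43 and 1.72 CPM and the KO libraries 0 and 0.12. With retinoic acid the WT libraries had 7.18 and 6.93 CPM and the KO libraries 0.281 and 0.471. In all 3 conditions both WT libraries lay above both KO libraries.

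The KO values of Plagl1 rest on very few reads. Over both libraries there were 63 counts in untreated WT and 1 in KO cells, a depth-corrected ratio of 61.1 (exact 95% interval 10.6 to 2451, counting error only). With doxycycline there were 55 and 2 counts, a ratio of 27.6 (7.28 to 234). With retinoic acid there were 302 and 15 counts, a ratio of 19.1 (11.4 to 34.5). The 3 intervals overlap. The KO to WT difference passed in edgeR's quasi-likelihood test in each condition, with adjusted p = 1.3e-07, 4.7e-07 and 1.1e-11. Plagl1 is the gene most exposed to transcript length among the 9: its effective length in the tables varied from 436 to 5085 bases between libraries, and with length offsets the doxycycline call was lost (log2 change -2.19, adjusted p = 0.14). On log2(TPM + 1) that call was also lost (-0.46, adjusted p = 0.12).

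Retinoic acid raised Plagl1 in WT cells by 1.88 ± 0.24 on the log2 scale (SE, adjusted p = 7.7e-08), from 1.91 ± 0.12 to 7.05 ± 0.172 CPM (SD, n = 2). In KO cells the 15 counts with retinoic acid against 1 untreated gave 3.31 ± 0.95 (adjusted p = 0.0026), a call that was lost on log2(TPM + 1) (0.22, adjusted p = 0.33). Doxycycline gave no call in either line (adjusted p = 0.47 in WT and 0.67 in KO). The 109 bases that lie 250 to 142 bases before the RefSeq start of Plagl1 (GRCm38.p6, plus strand, chr10:13090582-13090690), which are free of annotated exons, are shown because they open the window with the most CG dinucleotides among those of the 6 genes that had one. Its 300-base window, 250 bases before to 50 after the start, held 26 CG dinucleotides, more than 83.1% of the 32851 windows in the table. All letters are in lower case, since the only match to a searched motif in that window lay past these bases.
Plagl1: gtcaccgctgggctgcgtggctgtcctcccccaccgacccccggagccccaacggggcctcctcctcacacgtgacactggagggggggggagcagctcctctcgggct

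Peg3 encodes a large zinc finger protein that binds DNA and takes part in growth and maternal behaviour (ENSMUSG00000002265.16, chromosome 7, 6703892 to 6730431, minus strand). It was raised by both treatments, and in KO cells the rise was smaller. Untreated, Peg3 stood at 74.0 and 66.4 CPM in WT and at 69.1 and 79.7 CPM in KO cells, and these libraries overlapped. With doxycycline the WT libraries were at 591 and 545 CPM and the KO libraries at 230.1 and 249.7. With retinoic acid they were at 498 and 443 in WT and at 341 and 344 in KO cells. Under both treatments every WT library was above every KO library.

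Doxycycline raised Peg3 8.08-fold in WT cells (log2 change 3.01 ± 0.078, adjusted p = 8.4e-16) and 3.22-fold in KO cells (1.69 ± 0.077, adjusted p = 2.8e-12). The difference of the 2 responses was itself tested in the same edgeR fit and passed, at -1.33 ± 0.11 (adjusted p = 1.5e-07). Between the lines, Peg3 was 2.37-fold lower in KO cells with doxycycline (-1.24 ± 0.071, adjusted p = 3.3e-10) and 1.37-fold lower with retinoic acid (-0.46 ± 0.069, adjusted p = 5e-05). Untreated, the difference was 0.08 ± 0.082 (adjusted p = 0.49). For retinoic acid the difference of responses was -0.54 ± 0.11 (adjusted p = 0.0018), and it did not pass on log2(TPM + 1) (-0.50, adjusted p = 0.062).

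Peg3 starts 147 bases from Usp29, a paternally expressed gene read in the opposite direction, and the bases between the 2 starts are shown because they separate the starts of both genes (GRCm38.p6, chr7:6730432-6730577, written along the minus strand, all in lower case since neither motif searched occurs in them). They hold 5 CG dinucleotides.
Peg3: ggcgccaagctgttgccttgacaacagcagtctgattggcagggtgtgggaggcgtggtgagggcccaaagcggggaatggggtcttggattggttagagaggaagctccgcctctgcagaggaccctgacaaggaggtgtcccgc
Usp29, which encodes a ubiquitin-specific protease, was at 2.37 ± 0.438 CPM in untreated WT, 10.9 ± 0.619 with doxycycline in WT and 5.83 ± 0.0548 with doxycycline in KO cells (SD, n = 2). Like Peg3 it was lower in KO cells with doxycycline, by -0.90 ± 0.15 (adjusted p = 1.3e-05). Untreated KO cells had 1.79 ± 0.552 CPM, a KO to WT difference of -0.41 ± 0.25 (adjusted p = 0.23). Unlike for Peg3, the difference of the doxycycline responses of Usp29 did not pass, at -0.49 ± 0.29 (adjusted p = 0.26). With retinoic acid the KO to WT difference of Usp29 was 0.10 ± 0.13 (adjusted p = 0.56).

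Peg10 encodes a protein derived from a retrotransposon and needed to form the placenta (ENSMUSG00000092035.8, chromosome 6, 4747306 to 4760517, plus strand), and Sgce encodes epsilon-sarcoglycan, a membrane protein of the dystrophin complex (ENSMUSG00000004631.15, chromosome 6, 4674350 to 4747207, minus strand). Their annotated starts are 99 bases apart on opposite strands. Both genes rose with both treatments in both lines, but with doxycycline they moved apart between the lines: Peg10 was lower and Sgce higher in KO cells.

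The untreated Peg10 libraries had 455 and 442 CPM (WT) and 498 and 495 CPM (KO). With doxycycline the libraries stood at 14818 and 14616 in WT and at 7036 and 6898 in KO cells. With retinoic acid they stood at 4303 and 4155 in WT and at 3591 and 3435 in KO cells. No 2 groups overlapped. In WT cells with doxycycline, Peg10 alone took 1.36% of all counts, against 0.0405% untreated, and ranked 39 among all genes by TPM, a share of transcripts that corrects for length.

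Doxycycline raised Peg10 32.8-fold in WT (log2 change 5.04 ± 0.058, adjusted p = 9.1e-31) and 14.0-fold in KO cells (3.81 ± 0.055, adjusted p = 6.1e-29). The responses differed by -1.23 ± 0.070 (adjusted p = 3.7e-13). Peg10 was 2.11-fold lower in KO than WT cells with doxycycline (-1.08 ± 0.049, adjusted p = 2.9e-16) and 1.20-fold lower with retinoic acid (-0.27 ± 0.049, adjusted p = 5.9e-05). Untreated it was 1.11-fold higher in KO cells (0.15 ± 0.05, adjusted p = 0.027), a call that was lost when any 1 of the 4 untreated libraries was left out (adjusted p = 0.086 to 0.21), without the filter on low counts (0.06) and without chromosome 1 genes (0.059). Retinoic acid raised it by 3.24 ± 0.053 in WT and 2.82 ± 0.052 in KO cells, and these responses differed by -0.41 ± 0.070 (adjusted p = 6.8e-05).

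The untreated Sgce libraries had 7.94 and 10.3 CPM (WT) and 9.61 and 10.1 CPM (KO), and they overlapped. With doxycycline the WT libraries were at 43.2 and 41.4 and the KO libraries at 59.1 and 56.5, with both KO libraries above both WT libraries. Doxycycline raised Sgce by 2.22 ± 0.10 in WT (adjusted p = 2.3e-17) and by 2.55 ± 0.096 in KO cells (adjusted p = 3.4e-19). In that condition Sgce was 1.37-fold higher in KO cells (0.45 ± 0.077, adjusted p = 2.7e-05), while the difference of the responses missed the threshold at 0.33 ± 0.15 (adjusted p = 0.13). With retinoic acid the levels were 30.7 and 27.4 CPM in WT and 31.9 and 34.4 in KO cells (0.18 ± 0.081, adjusted p = 0.075).

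The ratio of Peg10 to Sgce, on TPM so that their lengths are accounted for, was 13.8 and 9.62 in untreated WT and 12.1 and 11.5 in untreated KO libraries. With doxycycline it was 78.0 and 80.0 in WT but 27.7 and 27.4 in KO libraries. With retinoic acid it was 32.3 and 35.1 in WT and 26.2 and 22.1 in KO libraries. The WT doxycycline libraries thus stood far above all others, and the untreated libraries of the 2 lines overlapped.

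**Figure D2:**
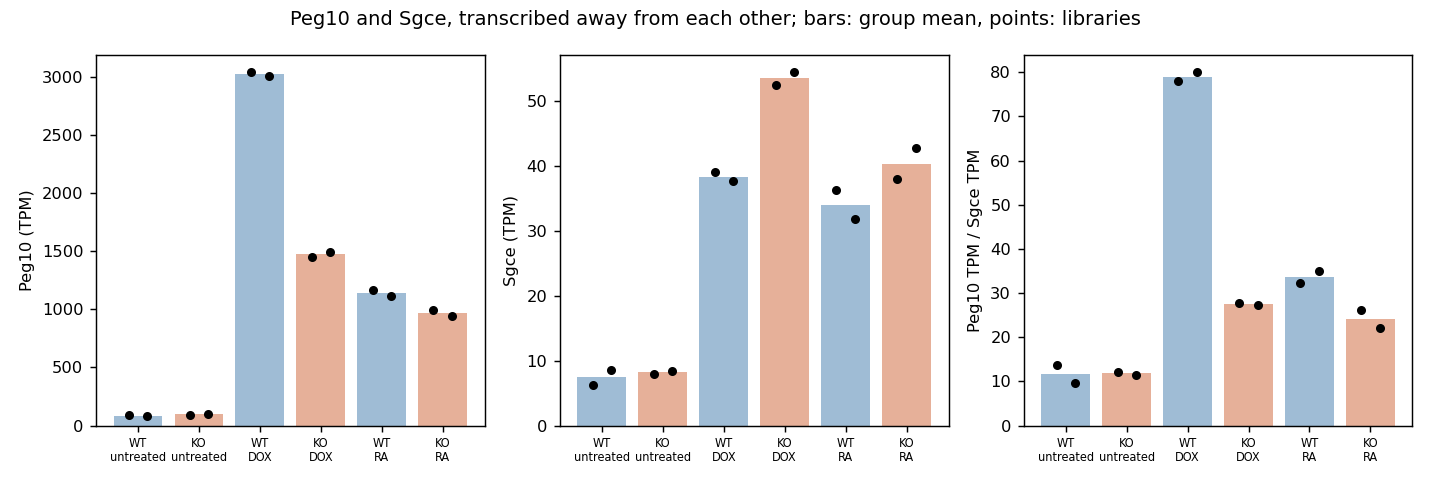
Peg10 TPM, Sgce TPM and the ratio of Peg10 TPM to Sgce TPM in the 6 groups (linear axes from 0). Bars are group means of 2 libraries (blue WT, orange KO) and points the libraries. The ratio averaged 79.0 in WT and 27.6 in KO cells with doxycycline, against 11.7 and 11.8 untreated.

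Mest encodes a protein of the alpha/beta hydrolase fold found in the endoplasmic reticulum and is an early marker of mesoderm (ENSMUSG00000051855.15, chromosome 6, 30723547 to 30748465, plus strand). It was higher in KO cells in every condition. Untreated, the WT libraries had 22.3 and 23.4 CPM and the KO libraries 65.6 and 62.8. With doxycycline the values were 31.2 and 30.2 in WT and 147 and 154 in KO cells. With retinoic acid they were 155 and 148 in WT and 607 and 595 in KO cells. Every KO library was above every WT library of its condition, and untreated KO cells were above WT cells with doxycycline.

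Mest was 2.81-fold higher in untreated KO cells (log2 change 1.49 ± 0.065, adjusted p = 5.1e-16), 4.91-fold with doxycycline (2.30 ± 0.058, adjusted p = 7.6e-22) and 3.97-fold with retinoic acid (1.99 ± 0.048, adjusted p = 3.7e-22). Doxycycline raised it by 0.42 ± 0.070 in WT (adjusted p = 6.2e-06) and 1.23 ± 0.053 in KO cells (adjusted p = 8.9e-18), and the responses differed by 0.81 ± 0.089 (adjusted p = 1e-07). Retinoic acid raised it 6.61-fold in WT and 9.37-fold in KO cells, and these responses differed by 0.50 ± 0.081 on the log2 scale (adjusted p = 4.2e-05). In order of level, KO cells with doxycycline and WT cells with retinoic acid were the only neighbours among the 6 groups that the test did not separate (adjusted p = 0.92).

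Markers of fibroblasts, the feeders of the first passages and a cell type known to express Mest, moved between groups as well. The summed level of 15 such markers was 72.9–74.8 CPM in WT and 94.0–103 in KO cells untreated, 62.2–63.7 and 113–117 with doxycycline, and 223–227 and 276–283 with retinoic acid. With doxycycline 7 of the 12 tested markers were higher in KO cells and 0 lower. Untreated, 4 were higher and 1 lower, and with retinoic acid 5 and 4. The most abundant of the markers untreated and with doxycycline was Col5a1. It had 26.0 and 35.5 CPM in WT and KO cells untreated and 29.4 and 52.2 with doxycycline. With retinoic acid the most abundant was Pdgfra, at 74.7 and 96.3 CPM. Pdgfra is also 1 of the 10 primitive endoderm markers given below, all higher in KO cells with retinoic acid, so it does not mark fibroblasts alone. At the other end, Fap had at most 1 count in any of the 12 libraries, Lum at most 3 and S100a4 at most 5, and Fap was at 0 in both libraries of 4 groups: untreated WT and KO, WT with doxycycline and WT with retinoic acid. Col5a1 is also among the 2 genes most alike Mest across the libraries. The part of such cells in the level of Mest was not tested.

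The 250 bases before the RefSeq start of the Mest transcripts that begin inside the annotated gene (GRCm38.p6, plus strand, chr6:30737800-30738049) are shown because they hold 2 matches to TGCCGC, the core of the Zfp57 motif. Both lie on the opposite strand, read here as GCGGCA and set in capitals, with their first bases 242 and 67 bases before the start. The stretch holds 14 CG dinucleotides.
Mest: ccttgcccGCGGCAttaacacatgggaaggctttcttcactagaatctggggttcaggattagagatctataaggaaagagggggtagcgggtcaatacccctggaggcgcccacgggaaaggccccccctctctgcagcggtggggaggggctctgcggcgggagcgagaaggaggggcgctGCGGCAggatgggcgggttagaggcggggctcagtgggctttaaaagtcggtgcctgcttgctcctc
Over the 6 of 9 genes that had a window in the RefSeq promoter table, 5 of 11 windows held TGCCGC on either strand, against 11.6% of all windows of that length, and 1 pair of the 11 windows, both of Mest and both with the motif, overlap. None held AANATGGC, the core of the Yy1 motif, which 6.05% of all windows hold. TGCCGC itself contains a CG. The windows that held it had 17 (Nnat and 2 of Mest), 26 (Plagl1) and 7 (Snrpn) CG dinucleotides, against a median of 7 over all windows. The 11.6% was not matched for CG content, so the 2 shares cannot be compared directly. A match is a run of letters, not a measured site.

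Nnat encodes neuronatin, a small membrane protein of the endoplasmic reticulum known from neurons and endocrine cells (ENSMUSG00000067786.16, chromosome 2, 157560078 to 157562522, plus strand). It was lower in KO cells in every condition. Untreated, the WT libraries had 3.53 and 5.11 CPM and the KO libraries 1.35 and 1.28. With doxycycline they had 15.6 and 16.1 in WT and 6.15 and 5.38 in KO cells. With retinoic acid they had 7.0 and 8.58 in WT and 1.31 and 1.20 in KO cells. In each condition the lower WT library was more than 2 times the higher KO library.

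Nnat was 3.27-fold lower in untreated KO cells (log2 change -1.71 ± 0.24, adjusted p = 2.9e-06), 2.75-fold lower with doxycycline (-1.46 ± 0.15, adjusted p = 5.9e-09) and 6.14-fold lower with retinoic acid (-2.62 ± 0.20, adjusted p = 2.9e-11). Doxycycline raised it in both lines, by 1.88 ± 0.16 in WT and 2.13 ± 0.23 in KO cells, and the difference of those responses was 0.25 ± 0.29 (adjusted p = 0.62). Retinoic acid raised it in WT cells by 0.85 ± 0.17 (adjusted p = 5.2e-05) and gave -0.06 ± 0.30 in KO cells (adjusted p = 0.87). The difference of the retinoic acid responses missed the threshold at -0.91 ± 0.35 (adjusted p = 0.072) and passed on log2(TPM + 1) (-0.93, adjusted p = 0.025) and without WT untreated replicate 2 (-1.19, adjusted p = 0.027).

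Nnat lies inside Blcap, a gene on the opposite strand, and the strand setting of the counting is not given in the sources used here, so reads of the 2 genes may not be fully separated. Between the lines Blcap did not follow Nnat. It had 23.1 and 23.4 CPM in untreated WT and KO cells, 31.6 and 50.9 with doxycycline, and 30.9 and 31.9 with retinoic acid. With doxycycline it was higher in KO cells by 0.68 ± 0.077 (edgeR adjusted p = 3.6e-08). Like Nnat, Blcap rose with doxycycline in WT and KO cells (0.46 ± 0.085 and 1.12 ± 0.081) and with retinoic acid in WT cells (0.42 ± 0.083). Unlike Nnat, it also rose with retinoic acid in KO cells (0.45 ± 0.083). Mixing of reads was not tested. The 70 bases before the Nnat start that lie outside any annotated exon (GRCm38.p6, plus strand, chr2:157560008-157560077) are shown for comparison with Mest. They hold 4 CG dinucleotides and no match to either motif, so all letters are in lower case, while the window around the start held 1 TGCCGC match on the opposite strand 27 bases past it.
Nnat: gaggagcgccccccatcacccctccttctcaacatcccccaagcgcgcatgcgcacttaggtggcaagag

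Snrpn encodes SmN, a core protein of spliceosomal particles (ENSMUSG00000102252.5, chromosome 7, 59982495 to 60140219, minus strand), and Ndn encodes necdin, a protein of the MAGE family that restrains cell growth (ENSMUSG00000033585.5, chromosome 7, 62346569 to 62350262, plus strand). Both lie in the region whose human counterpart is linked to Prader-Willi syndrome. They moved in opposite directions: Snrpn fell with each treatment and Ndn rose.

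Snrpn stood at 133 CPM in both untreated WT libraries and at 113 and 112 in the untreated KO libraries. With doxycycline it was at 119 and 111 in WT and at 84.7 and 74.9 in KO cells, and with retinoic acid at 65.2 and 68.0 in WT and 62.8 and 58.0 in KO cells. The KO libraries were below the WT libraries in each condition. Snrpn was lower in KO cells by -0.24 ± 0.058 untreated (adjusted p = 0.002) and by -0.52 ± 0.060 with doxycycline (adjusted p = 5.3e-08), and with retinoic acid the difference was -0.14 ± 0.062 (adjusted p = 0.077).

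Doxycycline lowered Snrpn by -0.50 ± 0.060 in KO cells (adjusted p = 3.5e-08) and by -0.22 ± 0.058 in WT cells (adjusted p = 0.0017), the latter call being lost on log2(TPM + 1) (-0.09, adjusted p = 0.24). The difference of these responses, -0.28 ± 0.084 (adjusted p = 0.019), missed the threshold in 10 alternatives (adjusted p = 0.054 to 0.11), 5 of which left out 1 untreated or doxycycline library. Snrpb, the paralog that encodes SmB in most tissues, had means of 274 ± 10.2 (WT) and 271 ± 5.97 CPM (KO) untreated, 235 ± 13.2 and 256 ± 14.8 with doxycycline, and 165 ± 6.15 and 158 ± 3.29 with retinoic acid (SD, n = 2). Reads shared by these similar genes, and those of Snurf, which overlaps Snrpn, were divided by the authors' software, so small changes of Snrpn are uncertain. Snurf, with 7.39 and 7.97 CPM in untreated WT and KO cells, gave no KO to WT call (adjusted p = 0.76, 0.81 and 0.47 in the 3 conditions).

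The untreated Ndn libraries had 11.6 and 11.1 CPM (WT) and 9.67 and 10.9 CPM (KO). With doxycycline it was at 28.1 and 26.3 in WT and at 35.4 and 34.0 in KO cells, with both KO libraries above both WT libraries. With retinoic acid it was at 45.7 and 42.0 in WT and at 42.8 and 46.3 in KO cells, where the libraries overlapped. Ndn rose 2.39-fold with doxycycline in WT and 3.37-fold in KO cells, and 3.86-fold and 4.32-fold with retinoic acid. With doxycycline it was 1.28-fold higher in KO than WT cells (0.35 ± 0.080, adjusted p = 0.00076). The doxycycline responses differed by 0.50 ± 0.14 (adjusted p = 0.011), which was lost without untreated WT replicate 1 (0.059), without untreated KO replicate 1 (0.077) and on log2(TPM + 1) (0.06).

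Impact encodes an inhibitor of the activation of Gcn2, the kinase that senses amino acid shortage (ENSMUSG00000024423.5, chromosome 18). It was highest in KO cells with doxycycline and lowest with retinoic acid. The libraries were at 270.2 and 268 CPM in untreated WT, at 250.5 in both untreated KO, at 267 and 256 in WT with doxycycline and at 370 and 360.2 in KO with doxycycline. With retinoic acid they were at 171 and 166 in WT and 159 and 161 in KO cells. The KO doxycycline libraries lay above all others and the 4 retinoic acid libraries below all others.

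Doxycycline raised Impact 1.46-fold in KO cells (log2 change 0.54 ± 0.046, adjusted p = 2.4e-11) and gave -0.04 ± 0.046 in WT cells (adjusted p = 0.43). The responses differed by 0.59 ± 0.065 (adjusted p = 1.2e-07). In WT cells the sign was not stable to scaling, at 0.08 on log2(TPM + 1) (adjusted p = 0.18) and -0.16 with upper-quartile factors (adjusted p = 0.0032). KO to WT differences were 0.48 ± 0.046 with doxycycline (adjusted p = 1.4e-09), -0.10 ± 0.046 untreated (adjusted p = 0.089) and -0.07 ± 0.047 with retinoic acid (adjusted p = 0.24).

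Set side by side, the KO to WT differences fell into 3 kinds. Mest was higher, and Plagl1 and Nnat lower, in KO cells in all 3 conditions. Peg3, Peg10, Sgce, Impact and Ndn were within 0.15 of WT on the log2 scale when untreated, where Peg10 alone of them passed, and differed from WT with doxycycline, Peg3 and Peg10 downward and Sgce, Impact and Ndn upward. For Sgce the difference of the doxycycline responses did not pass (0.33 ± 0.15, edgeR adjusted p = 0.13), so its shift between the 2 conditions was not established. Peg3 and Peg10 were also lower in KO cells with retinoic acid. Snrpn was lower untreated and with doxycycline.

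The order of the 6 groups differed from gene to gene. WT cells with doxycycline were highest for Peg3, Peg10 and Nnat, KO cells with doxycycline for Sgce and Impact, KO cells with retinoic acid for Mest and Ndn, WT cells with retinoic acid for Plagl1 and untreated WT cells for Snrpn. Going down each order, every step passed for Peg10. The 2 untreated groups were neighbours that did not pass for Peg3, Sgce and Ndn, and the 2 retinoic acid groups for Sgce, Snrpn, Impact and Ndn. The other neighbours that did not pass were untreated WT and WT with doxycycline for Plagl1 and Impact, KO with doxycycline and untreated KO for Plagl1, untreated KO and KO with retinoic acid for Nnat, and WT with doxycycline and untreated KO for Snrpn and Impact, beside the pair already given for Mest.

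Untreated, 5 of the 9 genes passed (2 higher, 3 lower), where 30% of all tested genes did (15.2% higher, 14.9% lower), and the median absolute log2 difference was 0.15 for the 9 genes and 0.24 for all genes. With doxycycline 9 of 9 passed (4 higher, 5 lower) against 37% of all genes (17.9% higher, 19.1% lower), with median absolute differences of 1.08 and 0.28. With retinoic acid 5 of 9 passed (1 higher, 4 lower) against 38.8% of all genes (18.8% higher, 20% lower), with medians of 0.27 and 0.25. Shares over 9 genes are coarse and were not tested against the background. With upper-quartile factors the split of all genes with doxycycline moved from 3197 higher and 3417 lower to 4168 and 2706, and that of the 9 genes stayed at 4 and 5.

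**Figure D3:**
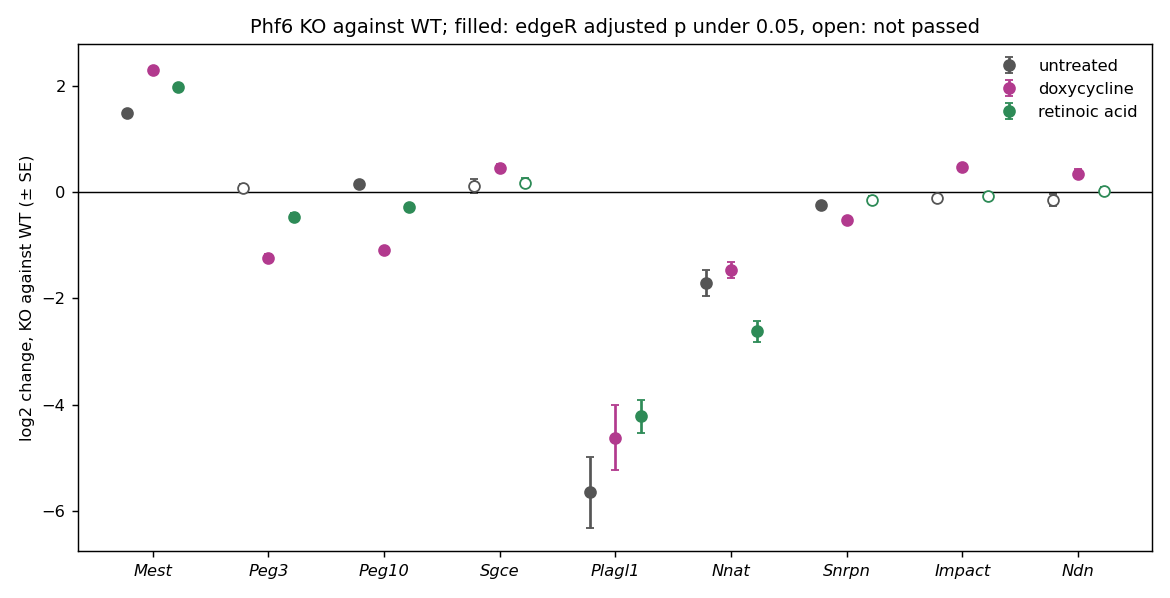
Log2 change of KO against WT cells for each of the 9 genes untreated (grey), with doxycycline (purple) and with retinoic acid (green), with whiskers of ± 1 SE from the edgeR fit. Filled points passed an adjusted p of 0.05. The doxycycline points are all filled and run from 2.30 for Mest to -4.62 for Plagl1, whose fitted values rest on 1 to 15 KO counts and depend on the prior count.

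Of the treatments, retinoic acid and doxycycline raised most of the 9 genes in both lines. With doxycycline 6 rose and 1 fell in WT cells, where 63% of all tested genes changed (31.8% rose, 31.3% fell). In KO cells 7 rose and 1 fell, where 62.3% of all genes changed (31.2% rose, 31.2% fell). With retinoic acid 7 rose and 2 fell in WT cells, where 73.9% of all genes changed (41% rose, 32.9% fell). In KO cells 6 rose and 2 fell, where 75.5% changed (40.9% rose, 34.6% fell). The median log2 change of the 9 genes was 1.25 in WT and 1.69 in KO cells with doxycycline, against 0 over all genes in both, and 1.88 and 2.11 with retinoic acid, against 0.12 and 0.10. Each treatment is compared with the same untreated libraries, so the WT doxycycline and retinoic acid values are not independent of each other, and likewise those in KO cells.

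The retinoic acid values depend on the scale. On log2(TPM + 1) the median of all genes moved up by 0.31 in both lines, and the calls over all genes went from 7332 higher and 5883 lower to 10279 and 2535 in WT cells, and from 7319 and 6183 to 10047 and 3019 in KO cells. On that scale Snrpn fell by 0.47 in WT and 0.37 in KO cells, in place of 1.00 and 0.90, and Impact by 0.15 (adjusted p = 0.014) and 0.12 (adjusted p = 0.039), in place of 0.68 and 0.64. The rises of Mest, Peg3, Peg10, Sgce and Ndn passed on both scales in both lines.

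The doxycycline responses of KO and WT cells differed for 6 of the 9 genes (3 higher and 3 lower in KO), where 19.2% of all tested genes differed (9.11% higher, 10% lower). With upper-quartile factors 5 of 9 differed, and the split of all genes moved from 1630 higher and 1795 lower to 2162 and 1331. The retinoic acid responses differed for 3 of 9 (Mest higher, Peg3 and Peg10 lower), where 17.7% of all genes did (7.31% higher, 10.3% lower). For Mest, Peg3 and Peg10 the differences had the same sign under both treatments, which share their untreated libraries.

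**Figure D4:**
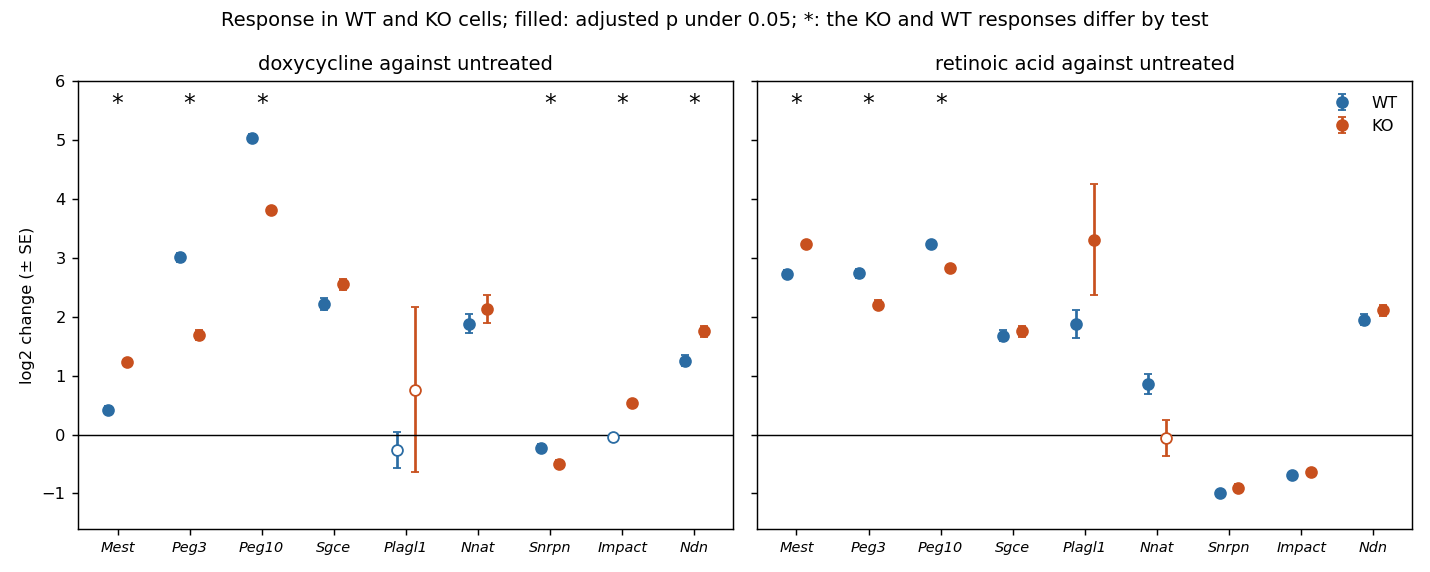
Log2 change against untreated cells in WT (blue) and KO (orange) for each of the 9 genes, with doxycycline on the left and retinoic acid on the right, and whiskers of ± 1 SE. Filled points passed an adjusted p of 0.05 and asterisks mark genes whose WT and KO responses differed in the test. Peg10 has the largest response, 5.04 in WT and 3.81 in KO cells with doxycycline.

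Markers of pluripotency and of differentiated lineages shifted between the lines too. The sum of the 10 pluripotency markers was 6604–6639 CPM in WT and 7280.2–7339 in KO cells untreated (3 higher, 2 lower in KO cells). It was 769–829 and 592–629 with doxycycline (2 higher, 7 lower), and 2429–2526 and 1554–1589 with retinoic acid (0 higher, 8 lower). The trophectoderm sum was 139.8 CPM in WT and 92.7–96.5 in KO cells untreated (0 of 11 tested markers higher, 8 lower), 2625–2994 and 1599–1703 with doxycycline (0 higher, 10 lower), and 410.2–446 and 458–486 with retinoic acid (2 higher, 6 lower). The primitive endoderm sum of 10 markers was 359–365 in WT and 346–349.8 in KO cells untreated (3 higher, 2 lower), 801 and 1078–1094 with doxycycline (5 higher, 2 lower), and 4691–4920 and 9065–9682 with retinoic acid (10 higher, 0 lower). The neural sum was 450.2–460.1 and 447 untreated (3 of 11 tested higher, 4 lower), 152–159 and 286–295 with doxycycline (2 higher, 3 lower), and 116–119 and 119.6–123 with retinoic acid (3 higher, 0 lower). Single genes weighed heavily in the neural sum: Stmn2 had 319.7 and 289 CPM in untreated WT and KO cells, and Nes 56.2 and 125 with doxycycline. The part of these marker shifts in the levels of Peg10, Peg3 and Mest was not tested.

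Genes that lie near the 9 in the same imprinted regions were examined from a list of 32, of which 27 were tested (Cpa4, Hrh4, Tsga13, Zim2 and Zim3 had too few reads, at most 12 counts in a library). The list was chosen with earlier results of these data known, so its counts are no test against the shares of all genes. Between the lines, 2 were higher and 2 lower in untreated KO cells (15.2% and 14.9% of all tested genes), 5 and 4 with doxycycline (17.9% and 19.1%), and 3 and 4 with retinoic acid (18.8% and 20%). The median log2 differences were 0, 0 and 0.04, against 0.02, 0 and -0.01 over all genes. Copg2, a coat protein gene whose end overlaps Mest by 912 bases on the opposite strand, was higher in KO cells by 0.30 ± 0.057 untreated (adjusted p = 0.00013) and by 0.20 ± 0.054 with retinoic acid (adjusted p = 0.0038), and by -0.01 ± 0.054 with doxycycline (adjusted p = 0.89), where Mest differed most. Ltv1 and Sf3b5, which neighbour Plagl1, were lower in KO cells with doxycycline by -0.28 ± 0.064 and -0.33 ± 0.082 (adjusted p = 0.00082 and 0.0039), small beside Plagl1 itself, and Phactr2 was higher by 0.51 ± 0.13 (adjusted p = 0.0021).

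With doxycycline 11 of the 27 tested neighbours rose and 5 fell in each line, where 31.8% of all genes rose and 31.3% fell in WT cells and 31.2% and 31.2% in KO cells. With retinoic acid 18 rose and 5 fell in WT cells (41% and 32.9% of all genes), and 17 rose and 5 fell in KO cells (40.9% and 34.6%). Beside Peg3, Zim1, a maternally expressed zinc finger gene, rose with doxycycline by 2.57 ± 0.18 in WT and 2.11 ± 0.17 in KO cells, and gave a KO to WT difference of 0 ± 0.12 in that condition, unlike Peg3 and Usp29. Beside Sgce, Casd1, a sialic acid acetyltransferase gene, rose by 1.47 ± 0.11 and 1.39 ± 0.11 with doxycycline and did not pass between the lines (adjusted p = 0.57, 0.13 and 0.75 in the 3 conditions). In the same region Ppp1r9a and Calcr were higher in KO cells with doxycycline, by 0.50 ± 0.078 and 1.05 ± 0.33 (edgeR adjusted p = 6.3e-06 and 0.013). No tested neighbour there was called lower in that condition. With retinoic acid Pon2 and Pdk4 were lower in KO cells, by -0.67 ± 0.16 and -0.56 ± 0.15 (edgeR adjusted p = 0.0012 and 0.0041), and none was called higher. Near Ndn, Magel2, another MAGE family gene, had 2.27 (WT) and 3.42 CPM (KO) untreated, a call upward in KO cells (0.58 ± 0.22, adjusted p = 0.042), and 11.1 and 8.75 CPM with retinoic acid, a call downward (-0.34 ± 0.13, adjusted p = 0.043).

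**Figure D5:**
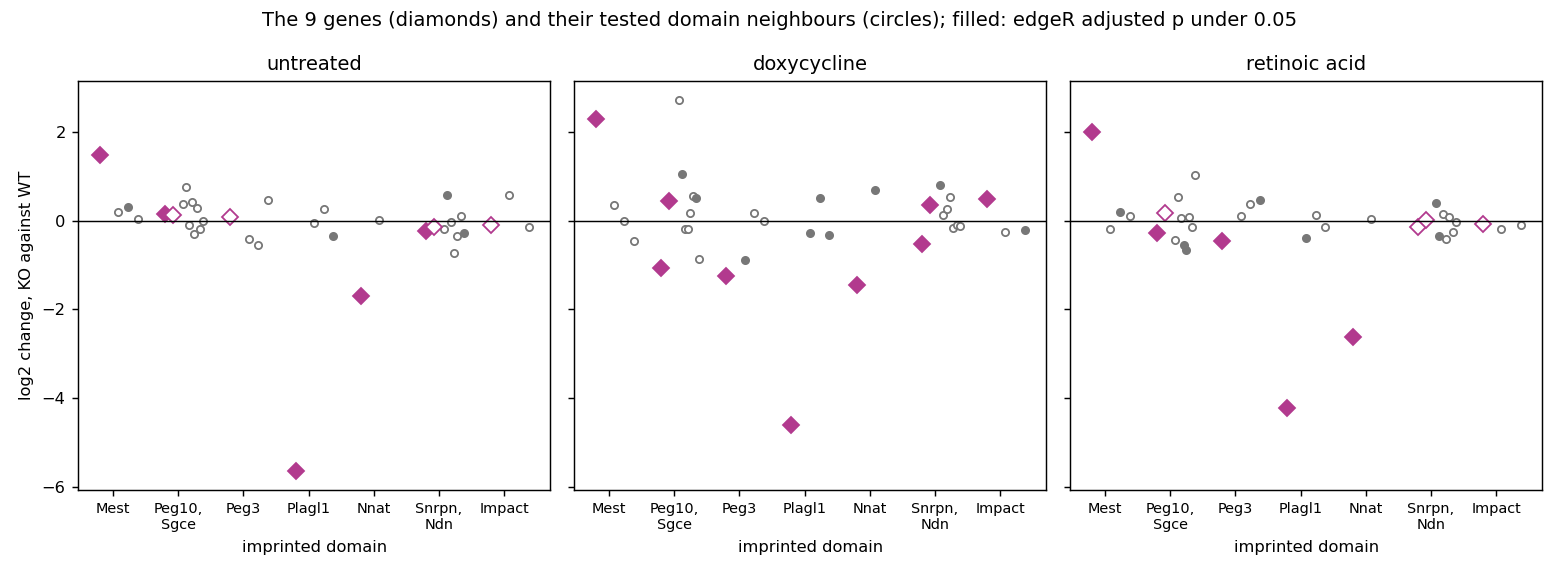
Log2 change of KO against WT cells for the 9 genes (purple diamonds) and for 27 tested neighbours (grey circles), grouped by imprinted region, untreated, with doxycycline and with retinoic acid. Filled symbols passed an adjusted p of 0.05. Plagl1 and Mest lie outside the range of their own tested neighbours (3 and 3 genes) in all 3 panels. Nnat has only 1 tested neighbour, Blcap, which gives no range, and lies below it in all 3 panels.

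A list of 14 genes that maintain imprints or that set or remove DNA methylation was examined, all of them tested. It was chosen with earlier results of these data known, so its counts are no test against the shares of all genes. With doxycycline 10 were lower and 2 higher in WT cells, where 31.3% of all genes were lower and 31.8% higher. In KO cells 11 were lower and 2 higher (31.2% and 31.2%). The list mixes roles: in WT cells with doxycycline Tet1 and Tet2 changed by -3.13 ± 0.060 and -3.09 ± 0.075, and Tet3 by 0.82 ± 0.077. Dnmt1 and Uhrf1 did not pass there (0.10 ± 0.047 and -0.02 ± 0.048, edgeR adjusted p = 0.071 and 0.69). In KO cells with doxycycline both were lower (-0.38 ± 0.047 and -0.47 ± 0.048). With retinoic acid 12 were lower and 1 higher in each line, where 32.9% of all genes were lower and 41% higher in WT and 34.6% and 40.9% in KO cells. The list's median log2 changes were -0.67 and -0.74 with doxycycline and -0.75 and -0.84 with retinoic acid in WT and KO cells, against 0, 0, 0.12 and 0.10 over all genes. Zfp57 had 695 ± 8.53 (WT) and 984 ± 14.4 CPM (KO) untreated, 55.9 ± 2.34 and 66.5 ± 2.53 with doxycycline, and 426 ± 10.0 and 233 ± 12.9 with retinoic acid (SD, n = 2). Between the lines it was higher in KO cells untreated (0.50 ± 0.049) and with doxycycline (0.25 ± 0.060) and lower with retinoic acid (-0.87 ± 0.050). Across the list, 6 were higher and 5 lower in untreated KO cells (15.2% and 14.9% of all genes), 2 and 9 with doxycycline (17.9% and 19.1%), and 2 and 8 with retinoic acid (18.8% and 20%).

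Single members of that list changed by more. Dppa3, which protects maternal methylation in the early embryo, was lower in KO cells in each condition, by -1.96 ± 0.40, -2.09 ± 0.50 and -4.33 ± 0.45, from low levels (2 to 11 counts in a KO library). Dnmt3l, the cofactor of the de novo methyltransferases, was lower in KO cells untreated (-0.57 ± 0.059) and with doxycycline (-1.16 ± 0.076) and higher with retinoic acid (0.55 ± 0.060). Tet2, a dioxygenase that oxidises methylated cytosine, was higher in untreated KO cells (0.61 ± 0.064) and lower with doxycycline (-0.80 ± 0.088) and retinoic acid (-0.88 ± 0.067). All these comparisons had adjusted p-values under the threshold in the edgeR fit. Methylation itself was not measured.

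Across the 12 libraries the profiles of Peg10, Sgce, Peg3 and Ndn resembled each other most among the 9, with Pearson r of log2 CPM of 0.95 for Peg10 and Sgce and 0.93 for Peg3 and Peg10, and Mest and Snrpn ran opposite (r = -0.94). These values describe 6 groups of 2 libraries that share treatments, not independent samples. Of 10851 other genes, the most alike were Crot and Col5a1 for Mest (r = 0.994 and 0.990), Rnf216 and Cotl1 for Peg3 (0.991 and 0.987), and Slc40a1 and Farp1 for Peg10 (0.997 and 0.993). For Sgce they were Zdhhc2 and Zfand3 (0.993 and 0.991), for Ndn Ptprm and Hook3 (both 0.994), for Snrpn Mri1 and Pde12 (0.986 and 0.982), and for Impact Mapk7 and Junb (0.986 and 0.979). For Plagl1 they were Rps6kc1 and Klhdc7a (0.970 and 0.968), and for Nnat Fam129a and Aida (0.971 and 0.969). Slc40a1, Rps6kc1, Fam129a and Aida lie on chromosome 1, whose median was lower in KO cells. Slc40a1, the iron exporter ferroportin, stood at 2.72, 60.4 and 17.6 CPM in WT cells untreated, with doxycycline and with retinoic acid. In KO cells it stood at 3.03, 31.9 and 14.0 CPM. This is the same order of groups as Peg10, which the choice of Slc40a1 by its correlation over these libraries makes likely.

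Per length, the 9 genes spanned a wide range. In untreated WT cells Impact (100.2 ± 2.60 TPM), Snrpn (92.1 ± 2.04) and Peg10 (84.6 ± 3.53) were the highest, Mest (11.9 ± 0.629), Peg3 (10.1 ± 1.04), Sgce (7.41 ± 1.58) and Nnat (5.87 ± 1.32) were in the middle, and Ndn (3.92 ± 0.219) and Plagl1 (0.90 ± 0.509) the lowest (SD, n = 2). In KO cells with retinoic acid Peg10 (970.1 ± 37.1 TPM) and Mest (464 ± 7.88) led, and Plagl1 stood at 0.18 ± 0.0141.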

How the data were processed

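RNA of 12 libraries (6 groups of 2) was sequenced. Per the submitters' processing notes, the authors used STAR 2.5.3a, RSEM 1.3.0 and DESeq2 1.18.1 with the mouse build mm10; for annotation release and strandedness of counting, nothing is stated in the sources used here. The deposited tables hold, per gene, expected counts (estimated reads, not whole for 9.54% to 11.6% of genes), TPM per the file headers, and effective length. Gene positions come from GENCODE M21 (GRCm38), in which 53274 of 53379 identifiers were found, and sequences from RefSeq.

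The expected counts were rounded. Genes were kept by edgeR's filterByExpr (minimum count 10), scaled by TMM and fitted together over all 12 libraries with edgeR 4.0.16's quasi-likelihood model in R 4.3.3. The 9 contrasts were tested, with Benjamini-Hochberg adjustment over all 17884 genes at 0.05. Standard errors were taken from the F statistic and the log2 change. CPM use the scaled library sizes. Count ratios have exact 95% intervals that cover counting error only. The fit was tested on counts simulated from its own spread. Changes were put only into well-counted genes of the KO to WT comparison with doxycycline. Recovery of changes at low counts, as in Plagl1, was therefore not covered. Alternatives used limma 3.58.1 on log2(TPM + 1) and log2(TPM + 0.1), DESeq2 1.42.0, other scalings, no filter, length offsets, single contrasts, a replicate block, each library left out, and, chosen after the results of the whole series were known, no chromosome 1 genes.

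All 9 genes are named. The most alike genes are the 2 with the highest Pearson r of log2 CPM, at a mean of at least 5 CPM, leaving out predicted genes. The genes and lists were chosen with earlier results of these data known.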

Additional observations from a re-analysis of the deposited data

Results flagged for a closer look

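The following 9 results stood out because the response to a treatment differed between KO and WT cells in a test of the difference itself (edgeR, adjusted over all genes, 2 libraries per group). With doxycycline the KO response exceeded the WT response, on the log2 scale, by 0.81 for Mest, 0.59 for Impact and 0.50 for Ndn, and the difference was -1.33 for Peg3, -1.23 for Peg10 and -0.28 for Snrpn. With retinoic acid the difference was 0.50 for Mest, -0.54 for Peg3 and -0.41 for Peg10. Those of Snrpn and Ndn with doxycycline and of Peg3 with retinoic acid missed the threshold under some alternatives. Every group had 2 libraries, so no library could be tested as an outlier.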

How the results depend on the processing

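The number of the 9 genes called in each comparison stayed within 1.5 times of the reported number under every alternative run. Of 1780 values of single genes under an alternative, 1715 kept their direction and side of the threshold, 29 lost a call, 16 gained one and 20 changed sign, all but 1 of the last without a call on either side. The exception is the difference of the retinoic acid responses of Plagl1, which went from 1.43 to -1.12 on log2(TPM + 1) (limma adjusted p = 0.031) and -0.69 on log2(TPM + 0.1). Changes of sign also befell Impact with doxycycline in WT (0.08 on both TPM scales), Nnat with retinoic acid in KO (0.22 and 0.30 on the TPM scales), Ndn between the lines with retinoic acid (-0.01 without the filter on low counts and -0.01 without chromosome 1 genes) and the difference of the doxycycline responses of Nnat (-0.11 on log2(TPM + 1)). The cause was not tested.

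Leaving out 1 library at a time gave, for the results that changed sign, -2.47 to 3.25 for Plagl1 with doxycycline in KO, -2.21 to 3.51 for its difference of doxycycline responses, -0.03 to 0.17 for Peg3 and -0.07 to 0.30 for Sgce between the untreated lines, -0.04 to 0.08 for Ndn between the lines with retinoic acid, -0.03 to 0.50 for the difference of doxycycline responses of Nnat and -0.12 to 0.25 for the difference of retinoic acid responses of Sgce.

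The count of all genes called fell by more than 1.5 times between the untreated lines, from 5369 to 3328 on log2(TPM + 1) and 3430 on log2(TPM + 0.1), and with retinoic acid from 6936 to 4054 on log2(TPM + 0.1). For the difference of doxycycline responses it fell from 3425 to 1988 with length offsets, 1812 and 1752 on the TPM scales and 2232 with DESeq2, and for that of retinoic acid responses from 3157 to 1761, 1983, 1395 and 1941.

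Replicate numbers are shared between groups, but same-numbered libraries did not deviate together (r of -0.24 to 0.19 over 15 pairs of groups, 1 of them over 0.1). With the number as a replicate block, the members called were 7, 8, 9, 8, 5, 9, 5, 6 and 3 in the 9 comparisons, as without it, and 5215 genes in all were called between the untreated lines against 5369. Depth limits Plagl1 most, whose KO libraries held 0 to 9 counts.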
